A study of Mus musculus with 6 samples.

Results

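The mRNA levels of 32 genes of cholesterol synthesis, of its regulator SREBP2 and of sterol transport were followed in mouse pancreatic beta-cells cultured with or without the other islet cell types. The 32 genes were listed by name with an earlier reading of the same table at hand, and were selected on the difference between the 2 groups compared here, so that difference is given below as a description and is not evidence for itself. All 32 were found by gene symbol in the deposited table, which holds 13535 genes. They fall into 8 genes of the mevalonate and isoprenoid arm, 11 of the squalene and sterol arm, 6 of SREBP2 and its control, and 7 of sterol transport, export and storage.

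Wild-type (WT) pancreatic endocrine cells from 12-week-old male C57BL/6JRj mice were reaggregated for 5 days in RPMI medium with 10% serum and antibiotics, and no hormone or drug was named for these samples. In pseudo-islets the beta-cells were reaggregated together with the other endocrine cell types, while in pseudo-beta they were reaggregated alone. Beta-cells were sorted by flow cytometry from both kinds of cluster after culture, and RNA sequencing was performed on 3 samples per group, numbered 35, 36 and 37 for the experiment that gave 1 sample of each group. How many mice were pooled per sample was not stated. Pseudo-beta were built from beta-cells purified by sorting before reaggregation. For mixed clusters the paper's results also describe sorted cells, while its methods name either dispersed islet cells or sorted ones.

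Cells make cholesterol from acetyl-CoA through mevalonate, the isoprenoid farnesyl diphosphate, squalene and a chain of sterol intermediates. When sterol in the endoplasmic reticulum is low, the protein SCAP escorts SREBP2 to the Golgi, where 2 proteases release its transcription factor part, and this part raises transcription of nearly every gene of the synthesis chain. When sterol is plentiful, INSIG proteins hold SCAP back and oxysterols acting through LXR raise the exporters ABCA1 and ABCG1. In beta-cells, membrane cholesterol is known to influence insulin granules and exocytosis.

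Normalized counts summed to between 17994346 and 19635287 per library, and the 10 most abundant genes took 40.9% to 45.1% of them. The number of sequenced reads per library is unknown, so no counting intervals are given and the spread between the 3 samples of a group sets the precision. All 9 beta-cell markers were in the table, with a median fitted difference between groups of 0.16 on the log2 scale, 7 higher and 2 lower in pseudo-islets, and none called by limma with or without the block (1 higher at an unadjusted p under 0.05). Glucagon mRNA (Gcg) was at 1763, 941 and 2094 normalized counts in the pseudo-islets libraries of experiments 35, 36 and 37, and at 36.1, 14.1 and 0 in pseudo-beta. Somatostatin mRNA (Sst) was at 190.2, 146 and 210.2 against 0, 0 and 4.74, and Ppy was at 4172, 383 and 1790.5 against 1650.1, 219 and 731. Over whole marker lists, the 7 of 12 alpha-cell markers in the table summed to 23742–28355 in pseudo-islets and 20803–27457 in pseudo-beta, or 1738–2901 and 430.1–507 without Peg3 and Ttr, which dominated the sum. The 3 of 8 delta-cell markers summed to 660–935 against 629–821, the 3 of 4 PP-cell markers to 876–5757 against 508–2687, and the 2 of 10 immune markers to 122–176 against 83.9–133. Acinar, stromal and endothelial lists were not analysed here, as none of their genes matched. Each sample was a bulk of sorted cells, so fewer cells expressing a gene and less RNA of it per cell cannot be told apart, and the part of RNA from other endocrine cells in the differences below was not tested.

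RefSeq promoter sequences (build GRCm38.p6) were available for 26 of the 32 genes. SREBP2 binds sterol regulatory elements and acts together with NF-Y, which binds CCAAT, and with Sp1, which binds GGGCGG. For 6 synthesis genes whose mRNA was above pseudo-beta in every pseudo-islets library, the 200 bases before the start of transcription are printed 5′ to 3′ on the gene's strand. They are examples picked after their values and motifs were seen, Hmgcs1 for its sterol regulatory element and the others for their NF-Y boxes, from 11 such genes with an entry, of which Acat2 holds no CCAAT. Capitals mark CCAAT or its reverse complement ATTGG and, in Hmgcs1, a match to the sterol regulatory element TCACNCCAC.
Hmgcs1 (chr13:119690151-119690350, plus strand): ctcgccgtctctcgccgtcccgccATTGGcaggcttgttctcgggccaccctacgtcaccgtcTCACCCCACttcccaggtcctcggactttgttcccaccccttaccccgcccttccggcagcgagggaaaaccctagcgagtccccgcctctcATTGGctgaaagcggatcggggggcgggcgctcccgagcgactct
Idi1 (chr13:8885406-8885605, plus strand): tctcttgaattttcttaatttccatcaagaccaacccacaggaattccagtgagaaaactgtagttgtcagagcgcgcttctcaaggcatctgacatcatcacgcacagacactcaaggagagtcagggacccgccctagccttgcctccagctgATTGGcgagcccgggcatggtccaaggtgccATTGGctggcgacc
Mvd (chr8:122443423-122443622, minus strand): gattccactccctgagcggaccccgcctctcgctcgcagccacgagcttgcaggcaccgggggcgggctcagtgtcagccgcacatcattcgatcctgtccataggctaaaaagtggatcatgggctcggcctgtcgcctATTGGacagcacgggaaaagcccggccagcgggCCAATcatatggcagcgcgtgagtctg
Msmo1 (chr8:64733579-64733778, minus strand): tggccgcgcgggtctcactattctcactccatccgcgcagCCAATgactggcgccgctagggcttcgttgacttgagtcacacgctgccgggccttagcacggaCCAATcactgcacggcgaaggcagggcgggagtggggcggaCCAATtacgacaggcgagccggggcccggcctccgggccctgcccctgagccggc
Tm7sf2 (chr19:6067851-6068050, minus strand): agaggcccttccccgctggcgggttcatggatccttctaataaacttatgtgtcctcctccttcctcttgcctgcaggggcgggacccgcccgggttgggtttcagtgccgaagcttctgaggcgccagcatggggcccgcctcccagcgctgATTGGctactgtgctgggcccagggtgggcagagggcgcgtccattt
Hsd17b7 (chr1:169969206-169969405, minus strand): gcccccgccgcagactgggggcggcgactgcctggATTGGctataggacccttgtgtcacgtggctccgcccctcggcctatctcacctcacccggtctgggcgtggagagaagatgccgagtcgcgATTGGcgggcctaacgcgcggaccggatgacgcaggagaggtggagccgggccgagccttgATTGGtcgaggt
Hsd17b7 and Msmo1 each hold 3 NF-Y boxes within these 200 bases, Hmgcs1, Idi1 and Mvd hold 2, and Tm7sf2 holds 1.

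In windows from 250 bases before to 50 bases after the start, on both strands and with any start of a gene counted, CCAAT was found in 21 of the 26 genes (80.8%), against 41.1% of 27025 genes with a RefSeq promoter and 43.4% of the 9801 of them that were in the table. It was present in 9 of 9 genes of the squalene and sterol arm and in 6 of 7 of the mevalonate and isoprenoid arm, Acat2 being the one without. Among the genes of SREBP2 control it was present in 3 of 6, and among those of sterol transport in 3 of 4. GGGCGG was found in 23 of the 26 genes (88.5%), against 38.2% of all genes and 68.6% of those in the table. The E-box CACGTG was found in 6 (23.1%), against 8.09% and 12.02%. TCACNCCAC was found in Hmgcs1 alone of the 26 (3.85%), against 1.44% and 1.33%. These matches describe letters in the windows and are not binding sites, and a missing match says only that these letters are not in the window. Abcg1, Stard4, Fdft1, Fdps, Sqle and Npc1 had no entry.

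Across the 32 genes, 25 had a higher fitted level in beta-cells from pseudo-islets and 7 a lower one, on the log2(normalized count + 1) scale used for every fitted difference here. Their differences ran from -0.42 to 1.11 with a median of 0.34, while the median over all 13535 genes was 0.01 and the middle of that distribution, from the 25th to the 75th percentile, spanned -0.20 to 0.18. The genes that make cholesterol stood highest among the roles, with 18 of 19 higher in pseudo-islets and a median of 0.45. The 6 genes of SREBP2 and its control had a median of -0.03 and the 7 of transport, export and storage one of 0.20.

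**Figure D1:**
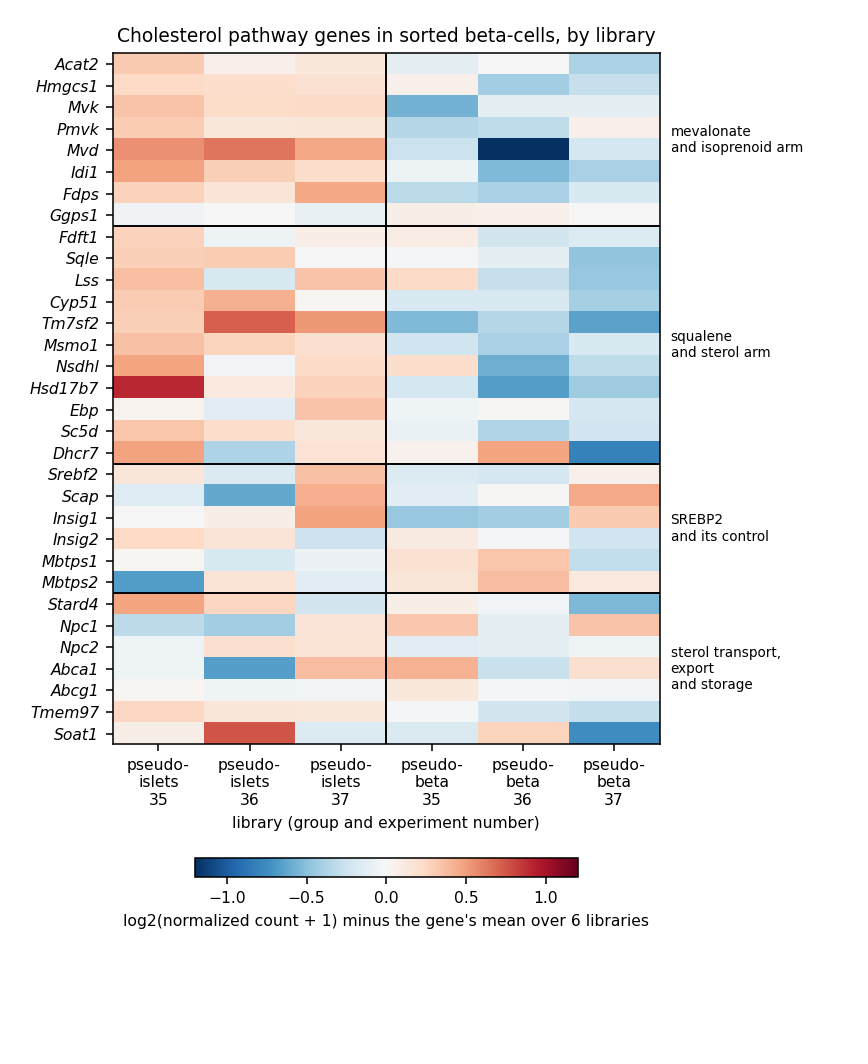
Each row is a gene and each column a library, grouped by role from top to bottom, and colour gives log2(normalized count + 1) minus the gene's own mean over the 6 libraries. Most rows of the upper 2 blocks are red in the 3 pseudo-islets columns and blue in the 3 pseudo-beta columns, while the lower 2 blocks are mixed.

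All 3 pseudo-islets libraries lay above all 3 pseudo-beta libraries for 14 of the 32 genes, and for none did they all lie below. Over all genes, 5.63% lay above and 5.13% below in this way. Within experiments, 22 of the 32 genes were higher in pseudo-islets in 3 of 3 and 4 were lower in 3 of 3. Of all genes, 18.0% were higher in 3 of 3, and the share lower in 3 of 3 is not given. With limma and no block for the experiment, 8 genes of the table (0.0591%) passed an adjusted p of 0.05 and none was among the 32. Of the 32, 11 were higher at an unadjusted p under 0.05 (all genes: 2.73%) and none lower. Over all genes, 731 had an unadjusted p under 0.05 in this fit, of which 370 were higher. The experiment number, which 1 sample of each group shares, was also used as a replicate block. Same-numbered samples deviated together clearly in experiment 37 alone. With this block, 59 genes (0.436%) were called as higher, and 3 of them were among the 32: Fdps, Msmo1 and Idi1. The blocked fit called 0 of the 32 without experiment 35, 2 without experiment 36 and 1 without experiment 37. Over all 13535 genes these 3 fits called 28, 73 and 45 in either direction. Since the genes were selected on this contrast, nothing is read from these counts.

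Single values below are normalized counts, always in the order of experiments 35, 36 and 37, with pseudo-islets before pseudo-beta. The first steps of the pathway join acetyl-CoA units and build the isoprenoids. Acat2, the cytosolic thiolase that makes acetoacetyl-CoA, was at 1102, 923 and 971 normalized counts in the pseudo-islets libraries of experiments 35, 36 and 37 and at 821, 882 and 679.7 in pseudo-beta. Hmgcs1, the HMG-CoA synthase, was at 1829, 1784 and 1754 against 1606, 1157 and 1276. The pseudo-islets libraries of Hmgcs1 lay within a narrow range and its pseudo-beta library of experiment 35 came closest to them. The fitted difference of Hmgcs1 was 0.42 ± 0.15 (SE, n = 3 per group), a 1.34-fold higher level. Mevalonate kinase (Mvk) was at 138, 126 and 127 against 73.1, 99.9 and 101, and phosphomevalonate kinase (Pmvk) at 1042, 926 and 934 against 665, 682 and 879. Both kinases were without overlap between groups, but in experiment 37 Pmvk differed by a log2 ratio of 0.09, its smallest.

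Mvd encodes the decarboxylase that yields isopentenyl diphosphate. It was at 188, 201 and 177 normalized counts in the pseudo-islets libraries and at 107, 55.2 and 110.4 in pseudo-beta, which is the largest fitted difference of the 32 genes (1.11 ± 0.31 SE, 95% interval 0.41 to 1.81). The pseudo-beta library of experiment 36 was low beside the other two, and the log2 ratio was 1.84 in that experiment against 0.81 and 0.68 in experiments 35 and 37. Idi1, the isomerase that makes dimethylallyl diphosphate, was at 1292, 1124 and 1071 against 884, 640.1 and 704 (0.65 ± 0.17 SE, 95% interval 0.27 to 1.04). Fdps, farnesyl diphosphate synthase, was at 4242, 3907 and 4837 against 2793, 2678 and 3088 (0.60 ± 0.13 SE, 95% interval 0.31 to 0.89). Its lowest pseudo-islets library was well above its highest pseudo-beta library, and its log2 ratios of 0.60, 0.54 and 0.65 varied little between experiments. Fdps lies at chr3:89093588-89101959 (minus strand, GRCm38) and shares exon sequence with a gene on its own strand, Gm43738.

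Ggps1, the synthase that turns farnesyl into geranylgeranyl diphosphate for protein prenylation and so leads away from sterols, was the one gene of the arm that was not higher. It was at 1487, 1544 and 1441 normalized counts in the pseudo-islets libraries and at 1609.5, 1603 and 1529.9 in pseudo-beta, a fitted difference of -0.08 ± 0.13 (SE, 95% interval -0.37 to 0.20). In each experiment its pseudo-islets value was the lower of the pair, with log2 ratios between -0.11 and -0.05. Ggps1 shares exon sequence with Arid4b on the opposite strand.

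**Figure D2:**
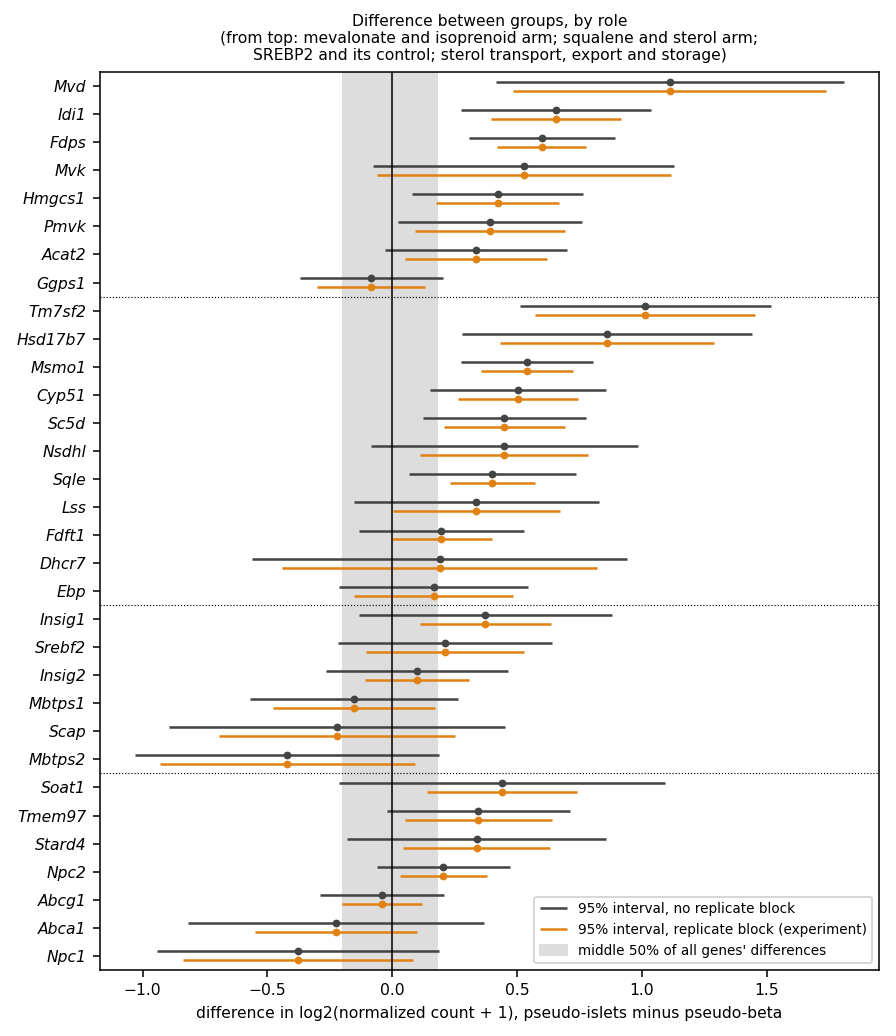
Points give the fitted difference in log2(normalized count + 1), pseudo-islets minus pseudo-beta, for each of the 32 genes by role, and lines give its 95% interval in limma without a block and with the experiment as a replicate block (n = 3 libraries per group). Mvd at 1.11 and Tm7sf2 at 1.01 have the largest differences, intervals narrow for most genes with the block, and the grey band is the range from the 25th to the 75th percentile of all genes, -0.20 to 0.18.

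The committed steps to sterols begin with squalene. Fdft1, squalene synthase, was at 2389, 1891 and 2075 normalized counts in the pseudo-islets libraries and at 2092, 1691 and 1759.6 in pseudo-beta, so it was higher in each experiment while the groups overlapped. Sqle, squalene epoxidase and a rate-limiting step of the later pathway, was at 6312, 6423 and 5215 against 5142, 4770.5 and 3746 (0.40 ± 0.15 SE, 95% interval 0.07 to 0.74). The groups did not overlap for Sqle, although its pseudo-islets library of experiment 37 exceeded the pseudo-beta library of experiment 35 by little. Lss, which closes squalene epoxide into lanosterol, was at 1108, 755 and 1091 against 1009.7, 714 and 629, with log2 ratios of 0.13, 0.08 and 0.79. Most of its difference thus came from experiment 37.

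Lanosterol is then trimmed and reduced. Cyp51, the lanosterol demethylase, was at 1421, 1538 and 1167 normalized counts against 1012, 1012 and 871 (0.50 ± 0.16 SE, 95% interval 0.15 to 0.86). Tm7sf2, a sterol reductase of the endoplasmic reticulum, was at 252, 341 and 297 against 143, 162 and 132, a 2.02-fold higher fitted level (1.01 ± 0.23 SE, 95% interval 0.51 to 1.52). All of its pseudo-islets libraries lay far above all of its pseudo-beta libraries, and Tm7sf2 (chr19:6062821-6068373, minus strand) shares exon sequence with Vps51 on its own strand. Msmo1, the methylsterol monooxygenase, was at 6042, 5728 and 5419 against 4028, 3624 and 4189 (0.54 ± 0.12 SE, 95% interval 0.27 to 0.80). Its groups were separated by more than the range within either of them. Nsdhl, the sterol dehydrogenase that works with Msmo1, was at 590.3, 415 and 498 against 493, 282 and 344. Nsdhl was higher in pseudo-islets within each experiment, but its groups overlapped because both libraries of experiment 35 were high.

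Hsd17b7, the ketoreductase of the same demethylation complex, was at 428, 248 and 277 normalized counts against 198, 145 and 171 (0.86 ± 0.26 SE, 95% interval 0.28 to 1.44). Its pseudo-islets library of experiment 35 was the high one, and the groups did not overlap. Ebp, the sterol isomerase, was at 862, 764 and 1058 against 809, 843 and 725, and was lower in pseudo-islets in experiment 36. Sc5d, the sterol desaturase, was at 1465, 1344 and 1276 against 1100.4, 903 and 992 (0.45 ± 0.15 SE, 95% interval 0.12 to 0.78). Dhcr7, which carries out the last reduction to cholesterol, was at 402, 222 and 324 against 299, 399 and 164. Its log2 ratios were 0.43, -0.84 and 0.98, and its fitted difference of 0.19 ± 0.34 (SE) ranged from -0.21 to 0.71 over 22 alternative fits, turning negative without pseudo-islets 35, without pseudo-beta 37, and in the blocked fit without experiment 37. Ebp turned to -0.03 in that last fit. The other 17 synthesis genes kept their sign in the 22 alternatives.

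**Figure D3:**
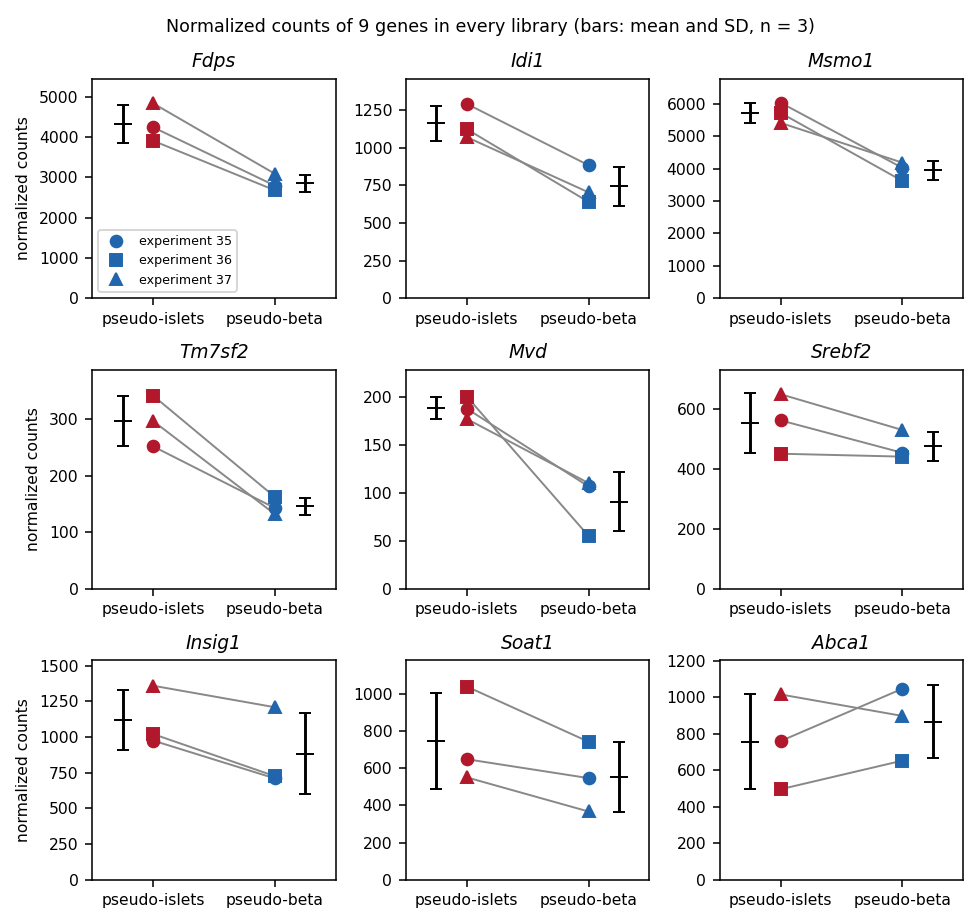
Normalized counts of 9 genes in the 6 libraries, with a grey line joining the 2 libraries of an experiment, a marker shape for each experiment, and black bars for the mean and SD (n = 3 per group). The lines of Fdps, Idi1, Msmo1, Tm7sf2 and Mvd descend in all 3 experiments with no overlap between groups, those of Insig1 and Soat1 descend but are set apart by experiment, and those of Abca1 cross.

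Summed over the 19 synthesis genes, normalized counts were 30936 ± 1438 in pseudo-islets and 23107 ± 1545 in pseudo-beta (SD, n = 3 per group). Within experiments 35, 36 and 37 the sum was 31.0%, 35.2% and 35.8% higher in pseudo-islets. As a share of all normalized counts of a library, which does not depend on the authors' scaling between libraries, the synthesis genes made up 162 ± 11.4 per 100000 against 127 ± 9.09 per 100000 (SD, n = 3 per group). This share was 27.1%, 27.7% and 27.2% higher in the 3 experiments. The mevalonate and isoprenoid arm (57.9 ± 2.73 against 45.4 ± 1.99 per 100000) and the squalene and sterol arm (104 ± 9.49 against 81.9 ± 7.84 per 100000) differed by like proportions. The share of SREBP2 and its control was 25.8 ± 1.15 against 25.5 ± 0.402 per 100000, and that of transport, export and storage 78.4 ± 1.48 against 77.8 ± 3.79 per 100000. For these last roles the 3 libraries of the groups overlapped.

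**Figure D4:**
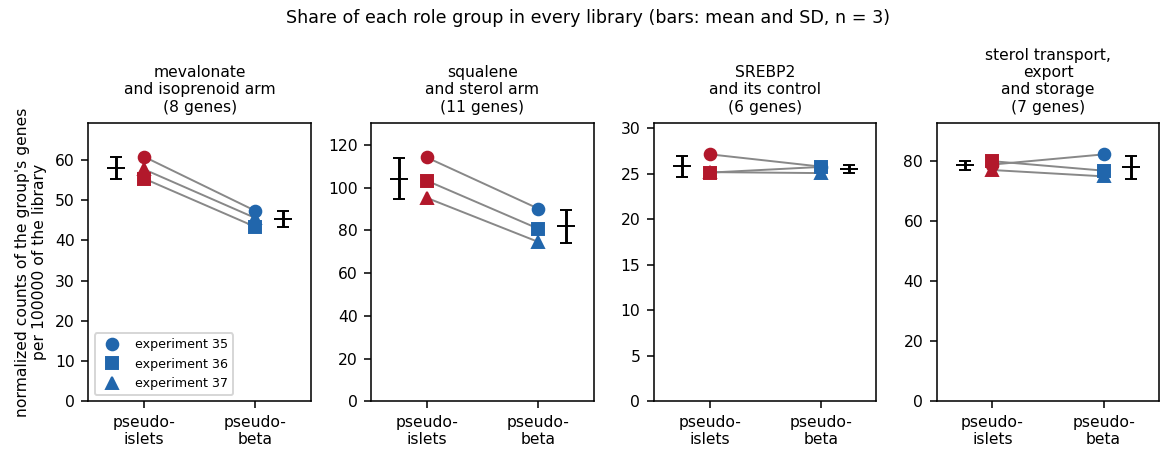
Normalized counts of each role's genes per 100000 of the library, in pseudo-islets and pseudo-beta, with lines joining the libraries of an experiment and black bars for the mean and SD (n = 3 per group). Both synthesis arms descend in every experiment, from 57.9 to 45.4 and from 104 to 81.9 per 100000 in the means, while the other roles stay near 25.8 and 78.4.

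The regulators themselves differed little or in mixed directions. Srebf2, which encodes SREBP2, was at 562, 451 and 649.7 normalized counts in the pseudo-islets libraries and 454, 441 and 530.3 in pseudo-beta (0.21 ± 0.19 SE, 95% interval -0.22 to 0.64). Its value was higher in pseudo-islets in each experiment, with overlapping groups. Scap, the escort of SREBP2, was at 182, 132 and 275 against 184, 204 and 278, so that experiment 36 alone set the groups apart, and its difference of -0.22 became 0.03 without the pseudo-islets library of experiment 36. Insig1, itself a target of SREBP2 and the retention factor that closes the feedback loop, was at 975, 1020.3 and 1359 against 709, 725 and 1208 (0.37 ± 0.23 SE, 95% interval -0.13 to 0.88, or 0.11 to 0.64 with the replicate block). Each pair was ordered the same way, but the groups overlapped through the high values of experiment 37. Insig2, the second retention factor, was at 2375, 2251 and 1702 against 2171, 1979.5 and 1723, with a difference of 0.10 ± 0.16 (SE). In both groups its library of experiment 37 was the lowest.

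The proteases that release SREBP2 had lower fitted levels in pseudo-islets, within their spread. Mbtps1 (site-1 protease) was at 863, 750.4 and 811 normalized counts against 968, 1075 and 694, a difference of -0.15 with a 95% interval of -0.57 to 0.26. It was higher in pseudo-islets in experiment 37, and the difference became 0.03 in the blocked fit without experiment 36. Mbtps2 (site-2 protease) was at 101, 180.4 and 147 against 178, 208 and 174 (-0.42 ± 0.27 SE, 95% interval -1.03 to 0.19). It was lower in each experiment and had the lowest difference of the 32 genes. Mbtps2 shares exon sequence with Yy2 on its own strand, and Scap with a gene on the opposite strand.

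Among the genes that move sterols, Tmem97, which encodes the sigma-2 receptor and binds NPC1, was the one whose groups did not overlap, at 682, 635 and 631 normalized counts in the pseudo-islets libraries against 572, 494 and 472 (0.34 ± 0.16 SE, 95% interval -0.02 to 0.71, or 0.05 to 0.64 with the replicate block). Npc2, the soluble lysosomal carrier of cholesterol, was at 4951, 5868 and 5742 against 4665, 4714 and 4953. Its partner Npc1, the lysosomal membrane transporter, was at 154, 143 and 213 against 239.6, 178 and 243. The members of this pair thus had opposite signs, 0.20 for Npc2 and -0.38 for Npc1, and the 95% interval of each included 0 without the block. With the replicate block the interval was 0.03 to 0.38 for Npc2 and -0.84 to 0.08 for Npc1. Stard4, a cytosolic sterol carrier and a target of SREBP2, was at 789, 676 and 487 against 596, 553 and 389.7. Soat1, which esterifies cholesterol for storage, was at 649.5, 1042 and 552 against 548, 744 and 367. Both were higher in each experiment, but their groups overlapped. With the replicate block their 95% intervals were 0.04 to 0.63 and 0.14 to 0.74, and without it both included 0.

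The exporters, which are targets of LXR, were not higher. Abca1 was at 760.4, 496 and 1017 normalized counts in the pseudo-islets libraries and at 1048, 653 and 899 in pseudo-beta (-0.23 ± 0.27 SE, 95% interval -0.82 to 0.37), and the sign turned (0.05) without the pseudo-islets library of experiment 36. Abcg1 was at 6678, 6336 and 6451 against 7178, 6458 and 6416 (-0.04 ± 0.11 SE, 95% interval -0.29 to 0.21), with a turn to 0.01 without the pseudo-beta library of experiment 35. For both, the lowest and highest libraries of the groups were interleaved.

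The genes were selected on the group difference, paired by experiment number, and not on how their levels differed between experiments. The effect of the experiment was tested with limma's moderated F-test of the experiment term in a fit that also held the group. The residual spread in this test is that of the same paired differences, so the test is not independent of the selection. The experiment term passed an adjusted p of 0.05 for 855 of 13535 genes (6.32%) and for 2 of the 32 (6.25%), a share close to that of all genes. These were Soat1 (adjusted p = 0.0181), whose mean over both groups was 893 normalized counts in experiment 36 and 459.5 in experiment 37, a 1.94-fold difference, and Insig1 (adjusted p = 0.0418), whose mean was 842 in experiment 35 and 1283 in experiment 37. Abca1 was just outside (adjusted p = 0.0505), with 575 in experiment 36 and 958 in experiment 37, in both groups lowest in experiment 36. At an unadjusted p under 0.05 there were 10 of the 32 genes (all genes: 23.5%), namely these 3 with Sqle, Stard4, Insig2, Nsdhl, Scap, Fdft1 and Lss. The number of the 32 called was 0 when either library of experiment 37, or both, was left out. Over all 13535 genes it was 145 without pseudo-islets 37, 72 without pseudo-beta 37 and 5 without both. Without either single library of experiment 35, 1 of the 32 was called (all genes: 397 without pseudo-islets 35 and 386 without pseudo-beta 35). Without the pseudo-islets library of experiment 36, or without both libraries of that experiment, 4 were called. Over all genes these fits called 1353 and 1551, so the count of the 32 rose and fell with that of all genes.

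Mean levels over both groups were highest in experiment 35 for 17 of the 32 genes, in experiment 36 for 5 and in experiment 37 for 10, and lowest in experiment 36 for 17. None of the 19 synthesis genes passed the test of the experiment at an adjusted p of 0.05, while 4 of the 19 (Sqle, Nsdhl, Fdft1 and Lss), a share near the 23.5% of all genes, had an unadjusted p under 0.05. Sqle was lowest in experiment 37 in both groups, with a 1.28-fold range of experiment means. Fdps, Idi1 and Msmo1 had ranges of 1.20, 1.23 and 1.08-fold over the experiments.

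Levels were set side by side per kilobase, using the median length of a gene's coding transcripts in GENCODE M21 (GRCm38). Over the 6 libraries Msmo1 stood first at a mean of 7501 normalized counts per kilobase, followed by Abcg1 (5767), Fdps (4021) and Insig2 (3651). Sqle, Ggps1, Npc2 and Idi1 came next, between 1953 and 1286 per kilobase. The lowest were Mvd (79.6), Abca1 (79.1), Mbtps2 (42.3) and Npc1 (37.3). This order pools both groups and is not the same within each: Fdps was above Insig2 in pseudo-islets (means of 4848 and 3787 per kilobase) and below it in pseudo-beta (3195 and 3515), and Mvd was above Abca1 in pseudo-islets (108 and 73.8) and below it in pseudo-beta (51.7 and 84.4). Neighbours in this order overlapped in their library values except at 3 places: every library of Abcg1 exceeded every library of Fdps, and likewise Insig2 over Sqle and Ggps1 over Npc2. The order was kept for 30 of 32 genes when libraries were rescaled without the 10 most abundant genes, where Mvd and Abca1 changed places. It depends on transcript length: with the longest transcript Fdps came first, Msmo1 second and Idi1 fell from rank 8 to 15. Per kilobase of the longest transcript, the means at the 3 separated places were in the reverse order. They were 1129 for Abcg1 and 2598 for Fdps, 754 for Insig2 and 1910 for Sqle, and 362 for Ggps1 and 1561 for Npc2.

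**Figure D5:**
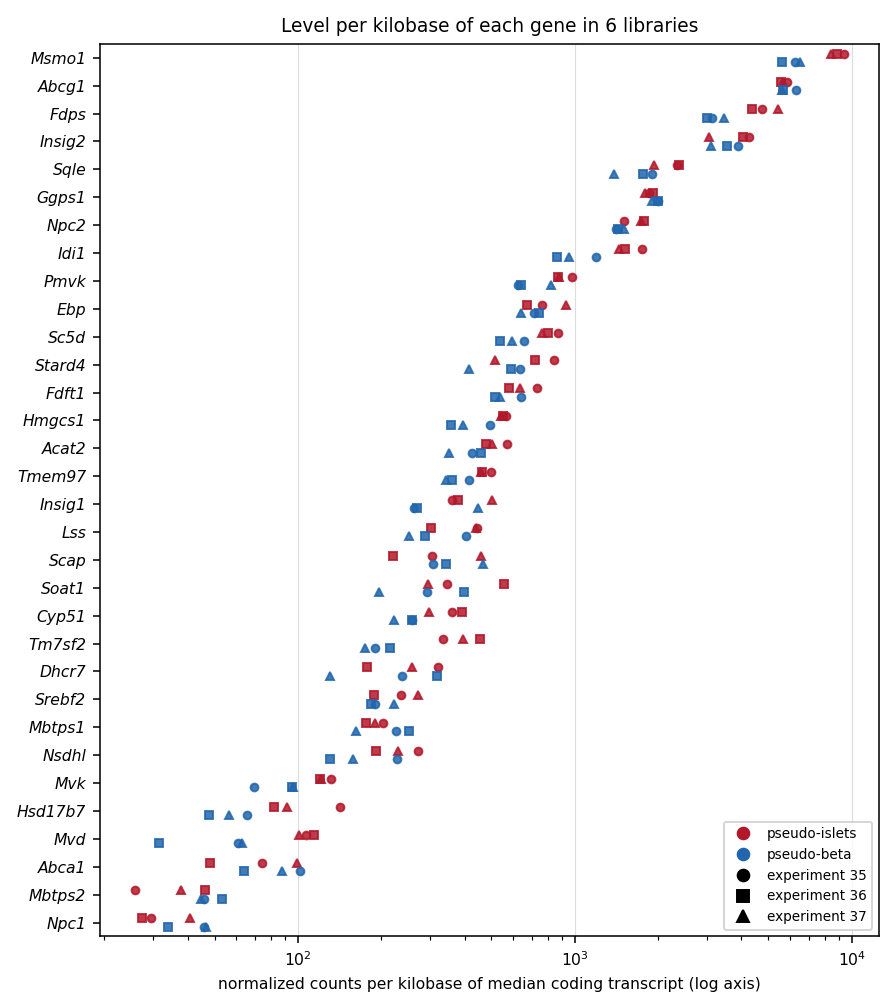
Normalized counts per kilobase of median coding transcript on a log axis, for each of the 32 genes in the 6 libraries, ordered by the mean, with colour for the group and marker shape for the experiment. Levels span from 37.3 per kilobase for Npc1 to 7501 for Msmo1, and the pseudo-islets points lie to the right of the pseudo-beta points for genes such as Fdps, Tm7sf2 and Mvd.

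Genes of the pathway outside the 32 were taken from 7 lists by function, of which 69 of 71 genes were in the table. Of these, 38 were higher in pseudo-islets and 31 lower, with a median of 0.02, and limma called none of them in either direction (lowest adjusted p = 0.400, and 0.0951 with the replicate block), with 4 higher (all genes: 2.73%) and none lower at an unadjusted p under 0.05. The groups did not overlap for 3 of the 69 that were higher (all genes: 5.63%) and 1 that was lower (all genes: 5.13%), the acetyl-CoA synthetase Acss2 (-0.44). The list of 3 other synthesis enzymes had the highest median of the 7 lists, 0.28. All 3 were higher in pseudo-islets, and for 2 of them the groups did not overlap (all genes: 5.63%). Lbr, a second sterol reductase of the same step as Tm7sf2, was the lowest of these 3, with a difference of 0.07 ± 0.21 (SE). Lbr and Acss2 are named after their values were seen.

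Scd1, the stearoyl-CoA desaturase and a target of SREBP1, had the largest difference of the 69, at 60.4, 33.6 and 90.6 normalized counts in the pseudo-islets libraries against 6.25, 13.8 and 11.7 in pseudo-beta (2.38 ± 0.54 SE, limma adjusted p = 0.400, and 0.0951 with the replicate block). The 14 genes of SREBP1 and fatty acid synthesis had a median of 0.16, with 9 higher and 5 lower. The 9 genes of lipoprotein uptake and lysosomal release had a median of 0.08. The 15 genes that branch from isoprenoids to ubiquinone, dolichol and prenylated proteins had one of 0.06, the 12 of sterol-regulated degradation -0.05, the 10 sterol transfer proteins -0.08 and the 6 of LXR and its partners -0.22. The experiment term passed for 12 of the 69 genes (17.4%; all genes: 6.32%), of which 5 were in the isoprenoid branches, 3 in sterol-regulated degradation, 3 among SREBP1 and fatty acid genes and 1 among the transfer proteins.

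How far these differences depend on the counting could not be resolved per gene. Fdps, Tm7sf2 and Mbtps2 share exon sequence with a gene on their own strand, and Idi1, Cyp51, Hmgcs1, Lss, Fdft1, Npc1, Scap and Ggps1 with a gene on the opposite strand, where reads cannot be told apart unless counting used strand, which was not stated. No annotated gene was named by the symbol of one of the 32 followed by -ps, a form used for pseudogenes. Pseudogenes under other names were not searched for, so reads shared with them cannot be judged from this.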

How the data were processed

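RNA from sorted beta-cells of 3 pseudo-islets and 3 pseudo-beta samples was measured, with 5 ng of total RNA per library, ribosomal RNA depletion and read pairs of 75 bases. The submitters' processing notes name STAR 2.7.6a, RSEM 1.3.1 and DESeq2 1.26.0 on GRCm38, and the authors deposited 1 table with a signal per gene and library in normalized counts, which are neither whole reads nor per length. The annotation release, strand setting and any filter on low genes are not given in the sources used here. Deposited columns of the authors' own comparison (mean, log2 fold change, standard error, statistic, p-value and adjusted p-value) were not used.

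Differences were fitted with limma 3.58.1 in R 4.3.3 on log2(normalized count + 1), with a variance trend and Benjamini-Hochberg adjustment over 13535 genes, called at 0.05, and the code was tested on simulated data. A log2 difference understates changes of low genes. No block was used, and the experiment number served as a replicate block in the alternative. Deviations from group means of same-numbered samples correlated at 0.119, 0.121 and 0.325 in experiments 35, 36 and 37. Those of differently numbered samples correlated at -0.203 to 0.0922. The same-numbered values were thus the highest, but only that of experiment 37 was well above the rest. Deviations within a group depend on one another, so these correlations are not independent. That same-numbered samples came from the same mice is not stated. The genes, roles, lists, tests and alternatives were chosen with earlier results of these data known. Genes outside the 32 were named when called, or when groups did not overlap and the log2 difference exceeded 0.58. Gene symbols were matched exactly. Some genes that this rule covers are not reported here. Other alternatives were a pseudocount of 0.1 or 10, rescaling without the 10 most abundant genes, quantile normalization, a minimum of 10 normalized counts per library, no trend, and leaving out libraries or experiments. Promoters are from RefSeq (GRCm38.p6) and lengths from GENCODE M21.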

Additional observations from a re-analysis of the deposited data

How the results depend on the processing

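The count of the 32 genes higher in pseudo-islets, 25, stayed within 1.5 times in the 22 alternatives run. The median difference of the 32, 0.34, was 0.28 with rescaling without the 10 most abundant genes, with or without the block, and 0.25 to 0.37 when 1 library was left out. That of the synthesis genes, 0.45, was 0.40 to 0.53 with 1 library left out. That rescaling moved the median over all genes from 0.01 to -0.05.

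Without the block, 8 genes were called. The count was 1 with a pseudocount of 0.1, 2 with rescaling, with quantile normalization and with no trend, and leaving out 1 library at a time gave 0 to 13. The replicate block gave 73, or 28, 73 and 45 without experiment 35, 36 and 37. Settings combined with the replicate block were added after seeing the data. They gave 50 (pseudocount 0.1), 104 (pseudocount 10), 82 (rescaling) and 81 (quantile normalization). A minimum of 10 normalized counts per library, which left 11894 genes to test, gave 118, and no trend gave 0. Of the 32, 0 were called without the block under each alternative run. With the replicate block there were 3, or 0, 2 and 1 without experiment 35, 36 and 37, and in those combinations 2, 4, 2, 3, 6 and 0. Among the other genes described by value, the block changed the call of Ppy (limma adjusted p = 0.990 without and 0.00267 with it) and no other call.

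The experiment term was called for 855 of 13535 genes. The count was 738 with a pseudocount of 0.1 and 0 with no trend. With a minimum of 10 normalized counts per library it was 1170 of 11894 genes tested. It was 72 to 1353 with 1 library left out, and 706, 1551 and 5 without experiment 35, 36 and 37. Of the 32, the count of 2 became 1 with a pseudocount of 0.1, 4 when each library needed a minimum of 10 normalized counts, 0 with no trend, 0 to 4 with 1 library left out, and 4 and 0 without experiment 36 and 37. The causes were not tested. Depth in reads is unknown, and 3 libraries per group gave a median standard error of 0.18 for the 32 genes.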
